A study of Homo sapiens with 3 samples.

Results

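Replication-dependent histone genes encode the bulk histones that package newly made DNA, and 63 of the 22283 probe sets on the array were taken as their members. A probe set was a member when every gene symbol annotated to it named a gene of the H1, H2A, H2B, H3 or H4 histone clusters. Of the 63, 43 named a single gene and 20 named several near-identical copies, and together they covered 62 of 13119 annotated genes, 53 of them on chromosome 6. Transcripts were measured in CAL 27, a line from a poorly differentiated squamous cell carcinoma of the tongue, grown in serum and stably transfected with a pEGFP plasmid. The nm23-H1 cells overexpressed GFP-Nm23-H1, the nm23-H2 cells carried pEGFPC1-nm23-H2 and overexpressed nm23-H2, and the vector cells carried the empty plasmid and overexpressed GFP, so the EGFP plasmid was common to the 3 groups. Nm23-H1 and Nm23-H2 are nucleoside diphosphate kinases, the products of NME1 and NME2. The design text calls the nm23-H1 and vector cells clones and leaves out the nm23-H2 cells. Each group was 1 array, so construct and transfected line cannot be told apart. No p-value was computed.

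Core histones H2A, H2B, H3 and H4 form the nucleosome, around which DNA is wound, and H1 binds the linker DNA between nucleosomes. Genes of this kind are switched on in S phase, when DNA is copied. Their messages typically end in a stem-loop bound by SLBP in place of a poly(A) tail, and polyadenylated forms from some of the genes are also known. H1-10, which the rule also takes, is known as a linker histone made outside S phase, and H1-6 as the testis linker histone.

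Signals were brought to a common mean, a floor was set at the pooled median of 28.3 signal units, and differences were taken on the log2 scale, where 1 is 2-fold. A difference in which 1 array lay below the floor is a bound. In this bulk RNA, fewer cells in S phase and less histone message per cell cannot be told apart. The spread between probe sets of the same gene, the only error measurable here, had an SD of 0.35 for nm23-H2 against vector, 0.32 for nm23-H1 against vector and 0.37 for nm23-H2 against nm23-H1 (log2, 1569 genes), and it leaves out cultures and hybridisations. Each transfected gene was highest on its own array: NME1 gave 2379, 1132 and 1519 signal units in nm23-H1, nm23-H2 and vector cells, and the probe set of NME2 and its read-through with NME1 gave 2323, 4845 and 2272. All 7 squamous keratinocyte markers with a probe set were above the floor on every array, against 1, 1 and 0 of 7 fibroblast markers and 2, 0 and 1 of 4 leukocyte markers in nm23-H1, nm23-H2 and vector cells.

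Promoters of chosen genes are shown first, because histone classes are known to carry different promoter elements. RefSeq windows (GRCh38.p14) were found for 56 of the 62 genes. Each printed run covers 170 bases before the annotated start and 30 from it, on the strand of the gene. Capitals mark the motifs searched on both strands: ATTTGCAT, the octamer known from H2B promoters; the CCAAT box; the TATA box in the form TATAAA or in the form TATATA, which can overlap each other; and the letters GGTCCG, part of the H4 element called site II. The 4 marker genes, all lower in nm23-H2 cells, come first, H2BC12 (chr6:27146829-27147028, minus strand), H2BC6 (chr6:26183591-26183790, plus), H2AC6 (chr6:26124002-26124201, plus) and H1-2 (chr6:26056441-26056640, minus). H4C11 (chr6:27823922-27824121, plus), an H4 gene with a difference near 0, closes the set. These were picked and do not stand for all members. H2AC25, H2BC12L and H3C8, not printed, were also at least 2-fold lower, and the windows of H2AC25 and H3C8 held no octamer. H4C4, an H4 gene at least 1.93-fold lower, held GGTCCG as H4C11 did.
H2BC12: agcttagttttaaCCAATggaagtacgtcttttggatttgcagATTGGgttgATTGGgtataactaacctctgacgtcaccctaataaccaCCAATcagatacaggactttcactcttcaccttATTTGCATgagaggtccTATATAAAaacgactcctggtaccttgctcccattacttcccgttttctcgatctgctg
H2BC6: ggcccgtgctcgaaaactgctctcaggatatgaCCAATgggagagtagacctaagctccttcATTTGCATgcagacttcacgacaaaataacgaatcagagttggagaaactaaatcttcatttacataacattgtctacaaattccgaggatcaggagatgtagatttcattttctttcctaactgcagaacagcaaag
H2AC6: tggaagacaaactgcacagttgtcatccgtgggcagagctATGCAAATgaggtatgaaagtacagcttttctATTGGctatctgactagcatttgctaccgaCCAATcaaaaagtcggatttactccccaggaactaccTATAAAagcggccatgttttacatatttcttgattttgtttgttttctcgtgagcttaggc
H1-2: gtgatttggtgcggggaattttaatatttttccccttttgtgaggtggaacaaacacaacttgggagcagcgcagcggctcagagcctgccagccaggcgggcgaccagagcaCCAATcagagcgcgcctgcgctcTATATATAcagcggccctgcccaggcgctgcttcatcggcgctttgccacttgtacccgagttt
H4C11: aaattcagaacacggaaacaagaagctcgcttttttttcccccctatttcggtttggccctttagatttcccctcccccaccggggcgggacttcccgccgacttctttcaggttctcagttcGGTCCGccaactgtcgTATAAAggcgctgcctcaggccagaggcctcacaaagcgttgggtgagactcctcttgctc

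In the full windows of 250 bases before and 50 from the start, the octamer lay in 12 of 15 H2B genes and 8 of 13 H2A genes, in 1 of 8 H3 genes and in 0 of 7 H1 and 0 of 13 H4 genes, against 1.77% of 35116 promoters. GGTCCG lay in 12 of 13 H4 genes, 0 of 13 H2A genes and 1 of 15 H2B genes, against 11.3% of all promoters. CCAAT lay in 13 of 13 H2A, 15 of 15 H2B and 8 of 8 H3 windows and in 3 of 13 H4 windows, against 34.6%. The H2BC12 octamer began at position -46 relative to the start, with a TATA motif at -29. In H2BC6 the octamer began at -108 and the TATA motifs at -191 and -189, outside the printed run. H2A and H2B genes often face away from each other and share the stretch between them: 8 such pairs had starts 194 to 248 bases apart, so their windows overlap and are not independent. The H2AC6 run is 1 of these, shared with H2BC4, whose start lies 246 bases away. A match to these letters is a description of the sequence only.

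Signal was uneven across the family. On all 3 arrays 24 of the 63 member probe sets were below the floor, 39 were above it on at least 1 array, 27 by their mean and 22 on every array. The brightest was a probe set annotated to 14 H4 genes, with 1117, 859 and 1113 signal units in nm23-H1, nm23-H2 and vector cells. H2BC12 followed by mean signal, and then the probe set of H2AC18 and H2AC19, the paired H2A genes of the chromosome 1 cluster. Of single-gene members, all 5 genes annotated by RefSeq as longer than 1000 bases (H2BC12, H2BC5, H2BC21, H3C6 and H1-10) were above the floor on every array, with a median signal of 182 over the 3 arrays. Of the 37 shorter genes, 10 were above it on every array and their median signal was 23.3. Whether poly(A) tails or gene length underlie that split was not tested.

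**Figure D1:**
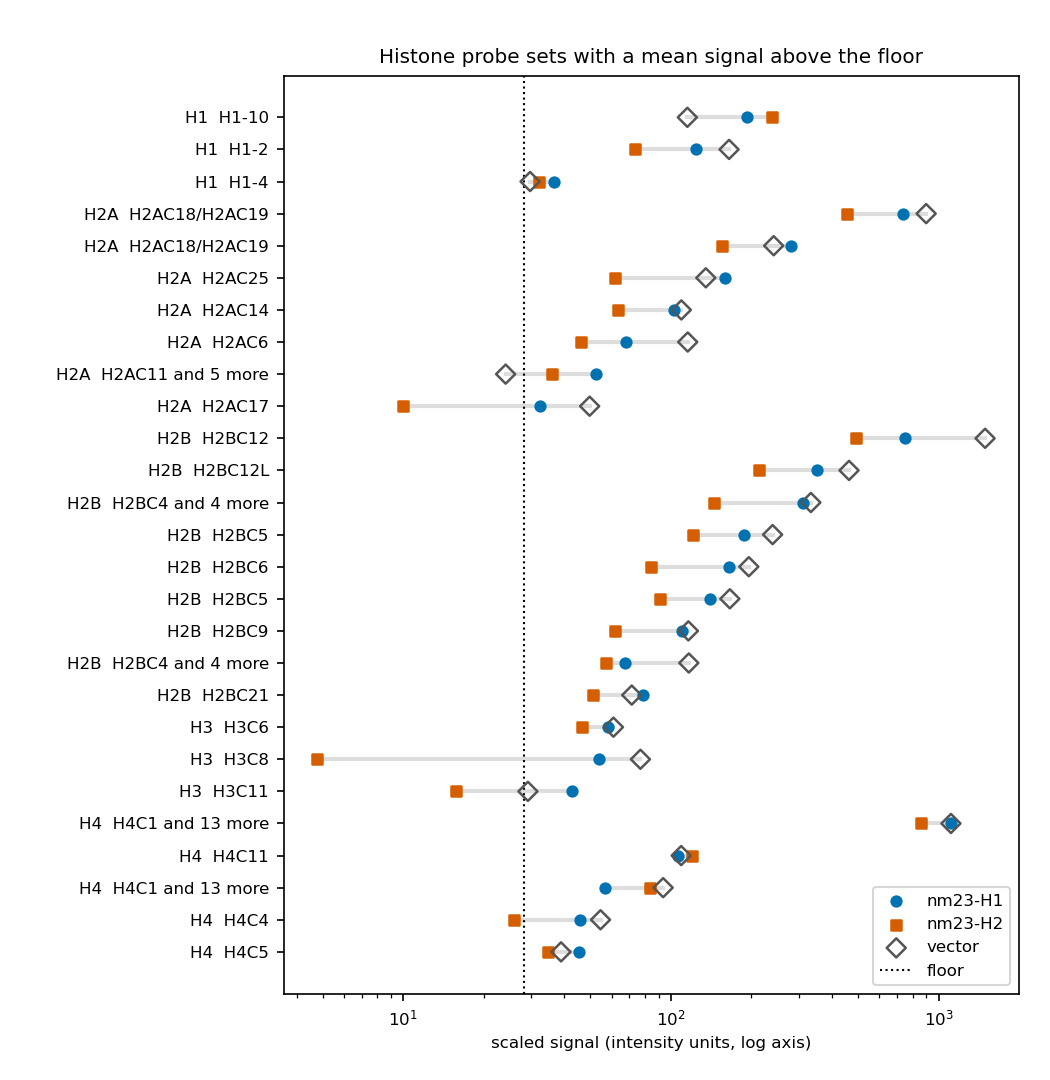
Scaled signal (log axis) of the 27 histone probe sets whose mean was above the floor, 1 row per probe set by histone class, with 1 point per array and the floor of 28.3 as a dotted line. The nm23-H2 squares lie left of the vector diamonds in 23 of the 27 rows, and H1-10 runs the other way.

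The comparison of nm23-H2 with vector asked how the second isoform's transfectant differed. Histone signals were mostly lower in nm23-H2 cells, with the lowest class medians in H2B and H2A. Of the 39 members above the floor, 9 were at least 2-fold lower, or 23.1%, against 3.32% of all 12989 probe sets above it, and 1 was at least 2-fold higher, against 3.52%. The median difference was -0.41 over these members and -0.04 over all probe sets, with 31 members below 0 and 5 above. Of all 12989 probe sets, 6900 were below 0. Of the 31, 8 were above the floor on the vector array only and could not have been above 0. Leaving out such probe sets, 23 of 31 members were below 0, against 6240 of 12329 of all. Of the 22 members above the floor on every array, 19 were below 0 and 3 above. Taking the 27 members with a mean above the floor, the same counts of 9 and 1 stood against 3.84% and 4.07%, and the median was -0.87 against -0.07 for all such probe sets. Without scaling, 2 of 33 were at least 2-fold lower (6.06%, against 1.27% of all probe sets), and the median was -0.42 against 0.18 for all. The 2 were H2BC12 (-1.27) and H3C8 (-1.30, a bound). With a common median, 6 of 36 were lower, and H2BC12L (-0.97), H2AC25 (-0.97) and 1 H2B probe set (-0.87) dropped under 2-fold.

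Among the H2B genes, 9 of the 9 members that were above the floor on an array other than vector were below 0, and 2 more were above it on the vector array only. H2BC12, whose message is known to occur with a poly(A) tail, gave 747, 492 and 1492 signal units in nm23-H1, nm23-H2 and vector cells. The nm23-H2 array was lowest and the vector array highest, and the difference between them was -1.60 (3.04-fold), lower than all but 0.38% of probe sets. For nm23-H2 against vector, H2BC12 was the only member past 2-fold under every scaling and floor tried, from -1.70 to -1.27. H2BC12L, an H2B gene placed on chromosome 21 and named for its likeness to H2BC12, gave 351, 214 and 463 signal units and a difference of -1.12 (2.17-fold). Cross-hybridisation between such copies was not tested.

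H2BC6 gave 164.5, 84.1 and 195.5 signal units in nm23-H1, nm23-H2 and vector cells, a difference between nm23-H2 and vector of -1.22 (2.32-fold). Of the 3 probe sets annotated to H2BC4, H2BC6, H2BC7, H2BC8 and H2BC10 together, 2 were at least 2-fold lower, at -1.20 (the brighter, 145 signal units in nm23-H2 cells against 333 in vector cells) and -1.02 (the dimmer, 57.4 against 117), and the remaining one was below the floor throughout. The 2 probe sets of H2BC5 gave -0.99 and -0.87, just short of 2-fold. H2BC9 gave -0.91 and H2BC21, of the chromosome 1 cluster, -0.48 (51.2 against 71.4).

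Of 9 H2A members above the floor, 7 were below 0, 1 of them above the floor on the vector array only, and the median was -0.79. H2AC6 gave 68.0, 46.3 and 116 signal units in nm23-H1, nm23-H2 and vector cells, -1.32 (2.49-fold) for nm23-H2 against vector, or -0.80 with the higher floor at the 70th percentile. H2AC25, a lone H2A gene on chromosome 1 far from the other clusters, gave 160, 62.0 and 135 signal units and was 2.18-fold lower (-1.12), with the nm23-H1 and vector arrays close together. The probe set of H2AC18 and H2AC19 gave 737, 455 and 899 signal units, a difference of -0.98, and a further probe set of the same pair gave -0.64. H2AC14 was at -0.79 and H2AC17 at least 1.75-fold lower. The exception was the probe set shared by 6 H2A genes (H2AC11 to H2AC13 and H2AC15 to H2AC17), below the floor on the vector array and higher with nm23-H2 by at least 0.35.

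Of 9 H4 members above the floor, 0 were at least 2-fold different, and the median was -0.06. A 2-fold lower value could be seen only where the vector signal was at least 56.7, and 3 of the 9 H4 members reached that, against 9 of 11 for H2B and 5 of 9 for H2A. The count and the median of H4 are therefore limited by the low signal of the other 6. The same limit holds for H1, with 2 of 5 members of enough signal, and H3, with 2 of 4. Among members with enough signal, those at least 2-fold lower were 5 of 9 for H2B, 2 of 5 for H2A, 1 of 2 for H1 and 1 of 2 for H3. By that count H2A did not stand out from H1 and H3. Of the 3 H4 members with enough signal, the bright 14-gene probe set differed by -0.37 and H4C11 by 0.14 (120 signal units in nm23-H2 cells against 109 in vector cells). The third, a dimmer probe set of the same 14 genes, differed by -0.17 (83.4 against 93.5). H4C5, with too little signal for a 2-fold lower value, differed by -0.16. H4C4, at least 1.93-fold lower, was the largest H4 difference. Probe sets of 1 class share sequence and are not independent. Among 4 H3 members the median was -0.22, and H3C8, with 54.0, 4.8 and 76.9 signal units in nm23-H1, nm23-H2 and vector cells, was at least 2.71-fold lower, although it was under 2-fold (-0.22) once the floor was raised to the 70th percentile.

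The linker histones went in opposite directions. H1-2, a main linker histone of dividing cells, gave 124, 73.4 and 165 signal units in nm23-H1, nm23-H2 and vector cells, and was 2.25-fold lower with nm23-H2 (-1.17). H1-10 gave 193, 238 and 115 signal units, and was 2.06-fold higher with nm23-H2 (1.04, or 0.95 with 16 added to each signal) and 1.68-fold higher with nm23-H1 (0.74), the vector array being lowest. H1-4 sat close to the floor on every array (0.11), H1-3 and H1-6 were above it on the vector array only, and H1-1 and H1-5 were below it on all 3.

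**Figure D2:**
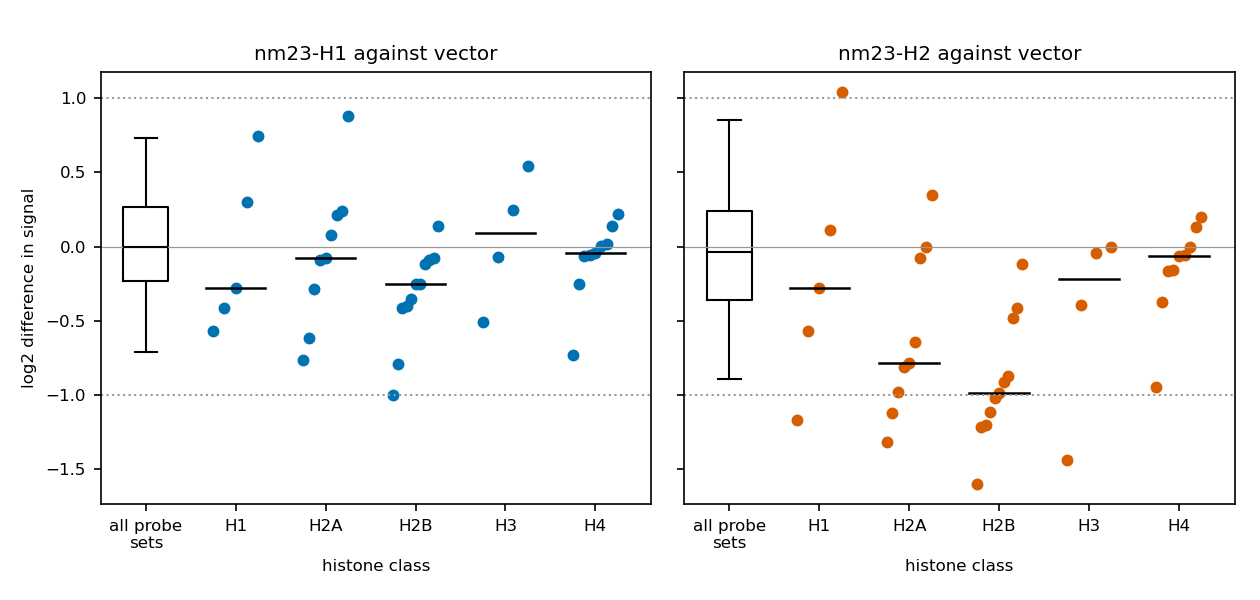
Log2 difference from vector for the histone probe sets above the floor, by class, in nm23-H1 cells (left) and nm23-H2 cells (right). Points are probe sets, bars class medians, and the box shows all 12989 probe sets (quartiles, whiskers from percentile 5 to 95). The 1 probe set shared by H3 genes and H2AC7 is left out. H2A and H2B medians were -0.79 and -0.99 in nm23-H2 cells, and that of H4 was -0.06. Each class held members too dim for a 2-fold lower value to be seen, 6 of 9 for H4, which limits the medians.

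The nm23-H1 cells, the subject of the series' title, were then set against vector. No histone member was past 2-fold in it, with 0 of 39 lower and 0 higher against 1.69% and 2.16% of all probe sets. The median was -0.08 against 0 for all probe sets, and it was 0.018 with the values as deposited, so its sign depended on the scaling. H2BC12 came closest, at -0.998 (747 signal units in nm23-H1 cells against 1492 in vector cells), and quantile normalization took it past 2-fold (-1.01). H2AC6 was at -0.77 and the dimmer of the 5-gene H2B probe sets at -0.79, while H2BC6 was at -0.25 and the bright H4 probe set at 0.01. A dimmer probe set of the same 14 H4 genes was at -0.73 (56.5 signal units in nm23-H1 cells against 93.5 in vector cells), so the H4 probe sets differed. On the other side, the 6-gene H2A probe set was 0.88 higher as a bound, and H3C11 was 0.54 higher.

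Set directly against nm23-H1 cells, nm23-H2 cells had 2 of 39 members at least 2-fold lower, against 3.6% of all probe sets, and 0 higher, against 3.79%. The 2 were H2AC25 (-1.36, 62.0 signal units in nm23-H2 cells against 160 in nm23-H1 cells) and the brighter 5-gene H2B probe set (-1.11, 145 against 313). The count was near the background, although the median was -0.38 against -0.06 for all probe sets. Below 0 were 27 of the 39 members, against 55.2% of all probe sets, and above 0 were 4, against 39.7%. The remaining 8 were above the floor on the vector array only, as were 660 of all 12989 probe sets, and so had no value in this comparison. They are included in the 39, in the count past 2-fold and in the median. Leaving them out, 27 of 31 members were below 0. Over the 39 members the nm23-H2 array was lowest for 31, the vector array for 5 and the nm23-H1 array for 3. These ranks use scaled signals before the floor was applied, so some rank arrays that were both below it. Over all probe sets above the floor the nm23-H2 array was also the one most often lowest, at 44.8%. Of the 22 members above the floor on every array it was lowest for 18, against 42.3% of all such probe sets. The comparisons share arrays, so their values are given side by side and not as separate evidence.

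Lower histone signals were found on chromosomes 1, 6 and 21. On chromosome 6 the histone genes run from 26017032 to 27893891 (GRCh38.p14), and 7 of the 29 members placed there alone were at least 2-fold lower in nm23-H2 cells, against 3.32% of all probe sets, with a median of -0.41. Within the same stretch 13 other genes were above the floor, among them the butyrophilin genes and HMGN4, which encodes a nucleosome-binding protein. Of these 13, 0 were at least 2-fold lower or higher, against 3.61% and 3.59% of all genes, and their median was -0.08, from -0.49 (HMGN4) to 0.44 (BTN3A2). In 11 of the 13 the vector signal was too low for a 2-fold lower value to be seen, so they give little to set against the histone genes. HMGN4, at 97.0 signal units in nm23-H2 cells against 136 in vector cells, and ABT1 (-0.13) were the other 2. The 4 members on chromosome 1 alone were all below 0, from -1.12 to -0.48.

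**Figure D3:**
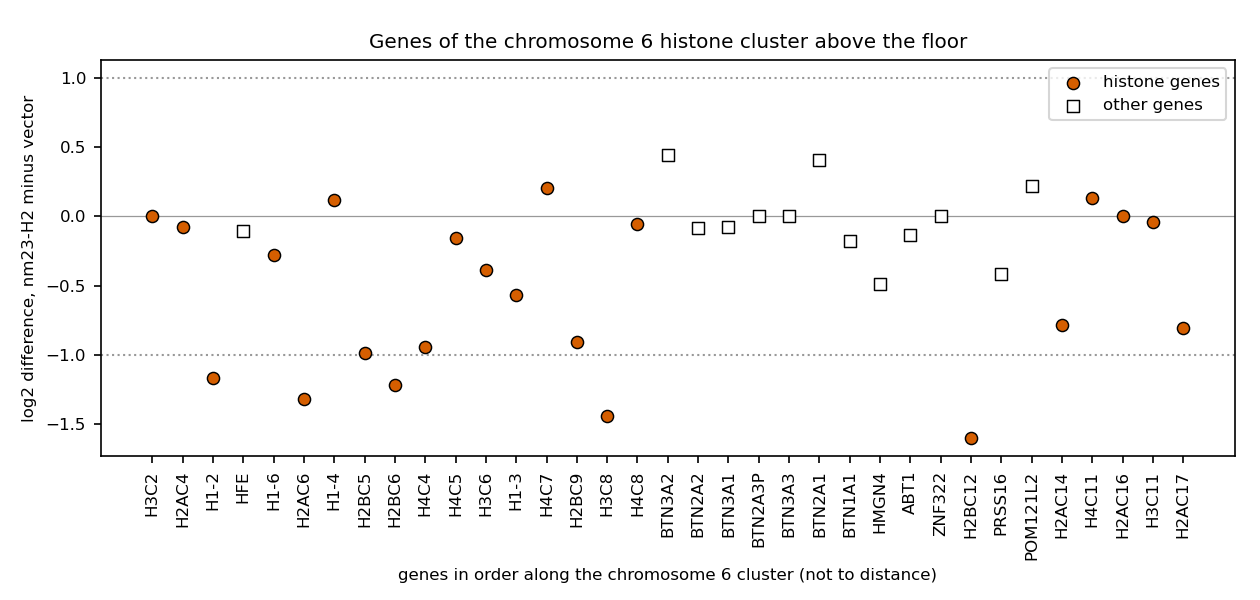
Log2 difference between nm23-H2 and vector cells for genes above the floor in the chromosome 6 cluster, placed in their order along the chromosome and not to distance. Filled circles are histone genes (the brightest single-gene probe set of each) and open squares are the other genes, which lie between -0.49 and 0.44 and of which 2 had the signal for a 2-fold lower value to be seen.

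Genes that act with histones were followed as gene lists, using 1 probe set per gene. Over all genes so taken, 3.61% were lower and 3.59% higher by 2-fold or more with nm23-H2 than with vector, and 1.73% and 2.14% with nm23-H1. The histone message factors showed 0 of 10 measured genes past 2-fold in either comparison, with medians of -0.03 for nm23-H2 and 0.19 for nm23-H1. SLBP, which binds the stem-loop, gave 258, 167 and 252 signal units in nm23-H1, nm23-H2 and vector cells, a difference of -0.59 with nm23-H2 and 0.03 with nm23-H1. NPAT, the cyclin E-CDK2 substrate that activates histone genes, was above the floor on the nm23-H1 array only.

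Of 18 chaperones and assembly factors, 1 was at least 2-fold lower with nm23-H2 and 0 higher, with a median of -0.28. That gene was ASF1B, an H3-H4 chaperone of dividing cells, at 392, 190 and 397 signal units in nm23-H1, nm23-H2 and vector cells (-1.06). Replacement histones, which are made outside S phase as well, had 2 of 7 genes above the floor that were lower by 2-fold or more, and 1, H1-10, that was higher. The 2 were H2AX, the variant phosphorylated at DNA breaks (229 signal units in nm23-H2 cells against 496 in vector cells, -1.12), and H2AZ2, an H2A.Z gene (524 against 1104, -1.07). Further, dimmer probe sets gave -0.54 and -0.29 for H2AX and -0.43 and 0.52 for H2AZ2, so these calls rest on the brightest probe set. With nm23-H1 0 of the 18 chaperones and 0 of the 7 replacement histones were past 2-fold.

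The DNA replication list had a median of -0.22 with nm23-H2, with 28 of 38 genes below 0, 1 at least 2-fold lower and 1 higher. POLE2, a subunit of DNA polymerase epsilon, gave 128, 50.7 and 178 signal units in nm23-H1, nm23-H2 and vector cells (-1.81 with nm23-H2), and CDC45, part of the replicative helicase, gave 117, 99.2 and 45.9 (1.11). Regulators of G1/S had a median of -0.24 over 16 genes. Among them CDKN1A, the CDK inhibitor p21, gave 75.1, 290 and 114 signal units (1.35), and CDC25A, a phosphatase that activates CDK2, was at least 2.20-fold lower. Mitosis genes had a median of -0.36 over 19 genes, with 3 at least 2-fold lower: AURKA (-1.14), CKS2 (-1.13) and CENPF (at least 2.08-fold). For AURKA 2 further probe sets gave -0.95 and, near the floor, 0.20. The median over all genes was -0.06. With 1 probe set per gene and none ending in _x_at, the histone median was -0.28 over 19 probe sets. The lists keep a probe set ending in _x_at where a gene has no other, so that median is not counted as theirs are. Over the 27 histone probe sets annotated to 1 symbol, those ending in _x_at included, the median was -0.57, lower than in the 3 cycle lists. H2BC5 enters that set more than once. How much of the histone difference goes with cycling was not tested.

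With nm23-H1 the same 3 lists had medians of 0.04, 0.06 and 0.05, in that order. In the replication list PCNA, the sliding clamp of DNA polymerases, was 606 against 202 signal units in vector cells (1.58), GINS1, a helicase subunit, 224 against 88.2 (1.35), and CDC45 1.35 higher. MCM5, another helicase subunit, was 422 against 849 (-1.01), and -0.83 by its dimmer probe set. PCNA and GINS1 lie on chromosome 20, and CDC45 and MCM5 on chromosome 22. Other listed genes of chromosome 20 above the floor gave 0.43 (TPX2), -0.16 (E2F1), -0.21 (UBE2C) and -0.40 (AURKA) with nm23-H1. A part played by position was not tested.

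**Figure D4:**
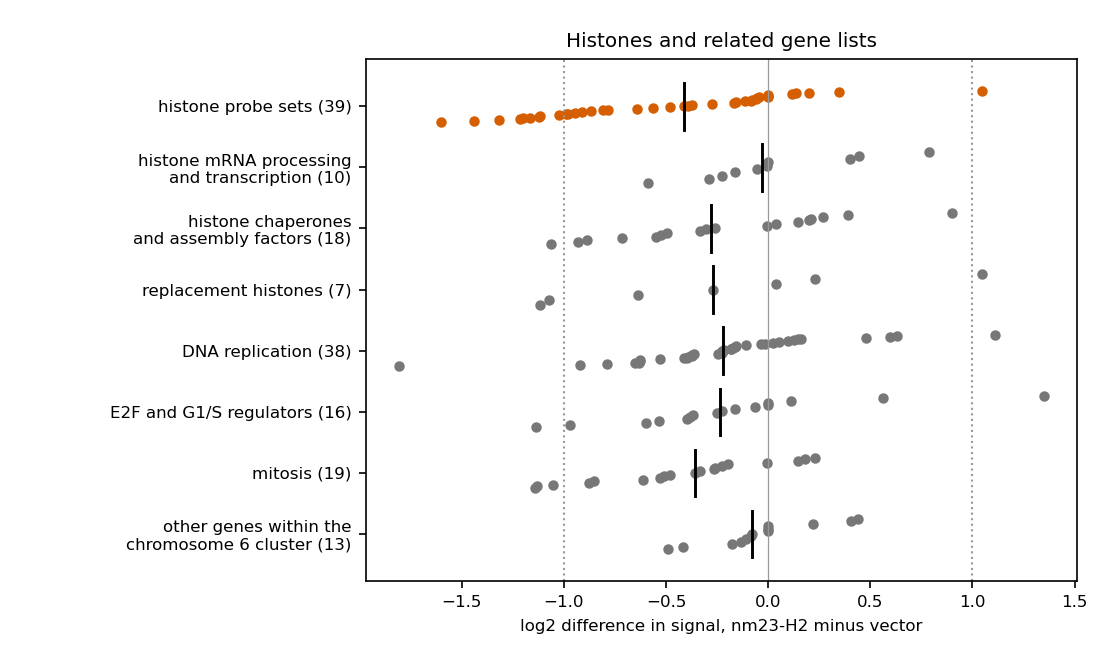
Log2 difference between nm23-H2 and vector cells for the 39 histone probe sets above the floor (orange) and for genes of the related lists (grey), with the number of points after each name, medians as vertical bars and dotted lines at 2-fold. The histone row holds all probe sets of a gene, with a median of -0.41. The other rows hold 1 per gene, with medians of -0.36 for mitosis and -0.22 for replication. With 1 per gene and none ending in _x_at the histone median was -0.28, and over single-symbol probe sets it was -0.57. Neither set is chosen as the other rows are, which use probe sets ending in _x_at last.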

How the data were processed

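RNA of 3 CAL 27 transfectants was hybridised to 1 Affymetrix array each. The deposited values are linear signal intensities per probe set, made by the authors with MAS5 per the submitters' processing notes; version, scaling target and detection calls are not given in the sources used here. Each array was multiplied (nm23-H1 1.03, nm23-H2 0.881, vector 1.11) to a common mean between percentiles 2 and 98, values under the pooled median were set to it, and log2 was taken. Probe set annotation, updated through gene IDs, gave 19071 probe sets 1 symbol, 1043 several and 2169 none. For gene lists the brightest probe set per gene was used, those ending in _x_at last. Named were members past 2-fold, the 4 marker genes, the 8 brightest, H1-10, class extremes and list genes past 2-fold (at most 4 per list). Members and lists were chosen with earlier results of these data known. Counting was tested on simulated data, with lower values planted only in probe sets whose mean was more than 2-fold above the floor. That test does not cover the 18 of 39 members whose vector signal was too low for a 2-fold lower value. The number of arrays limits the precision. Alternatives covered scaling, floor, probe set choice and threshold. Python 3.11.15, numpy 2.4.6, pandas 2.3.3 and matplotlib 3.10.9 were used.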

Additional observations from a re-analysis of the deposited data

How the results depend on the processing

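The direction of the histone median held under every alternative for nm23-H2 against vector (-0.87 to -0.22) and against nm23-H1 (-0.63 to -0.19). For nm23-H1 against vector it ran from -0.23 to 0.018, turning with the values as deposited. The count lower with nm23-H2 than with vector, 9 as reported, was 2 with the values as deposited, 6 with a common median, 19 with the floor at the 25th percentile, 6 with the floor at the 70th (median -0.81), 11 with 16 added in place of a floor, 17 at 1.5-fold, and 4 both without probe sets ending in _x_at and with 1 probe set per gene. All probe sets gave 1.27%, 2.15%, 9.50%, 1.91%, 3.95% and 13.5% lower in the first 6 of these. The 1 higher became 0 with 16 added and without H1-10. Against nm23-H1 the 2 of 39 lower became 1 of 33 with the values as deposited (2.02% of all probe sets). It was 1 of 26 without _x_at probe sets, 1 of 27 with single-symbol probe sets and 1 of 19 with 1 probe set per gene. It was 10 of 57 with the 25th percentile floor (10.6% of all probe sets) and 16 of 39 at 1.5-fold (15.4%). For nm23-H1 against vector, 1 of 37 was lower with quantile normalization (1.92% of all probe sets) and 1 of 39 with 16 added (2.04%). With the 25th percentile floor 5 of 57 were lower and 4 higher (5.61% and 6.77% of all probe sets). At 1.5-fold 5 of 39 were lower and 2 higher (7.59% and 8.61%). Of 72 values of the named differences under 6 of these settings, 54 stayed past 2-fold, 18 did not and 0 turned. A lower floor could not shrink a difference, so all 12 at the 25th percentile had to stay. A changed floor or an added value could not turn one. With the values as deposited 4 stayed past 2-fold and 8 did not. The median over members with a mean above the floor (-0.87) was added after the data were seen. The causes were not tested, except that fewer probe sets enter where some are left out. No paired analysis was possible because each group had 1 array. Signal over the floor limits the 24 members below it on all arrays, for which nothing is shown.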
